A study of Mus musculus with 12 samples.

Results

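The interleukin-1 (IL-1) family and its receptors were examined as 10 genes of the deposited gene count table, chosen by symbol: the ligands Il1a, Il1b, Il18 and Il33, the antagonists Il1rn and Il18bp, the receptor subunits Il1r1, Il1rap and Il1rl1, and the decoy receptor Il1r2. They are 10 of the 52550 genes in the table and 10 of its 21950 protein-coding genes. All 10 were among the 15885 protein-coding genes with enough counts to be tested. The rule that selects them uses gene symbols and no measured value, but the members were chosen with earlier results of these data known. The measurements are bulk RNA sequencing of the lungs of 12 newborn C57Bl/6J mice, each the source of a single library. The mice fall into 4 groups of 3. WT mice carry both copies of adrenomedullin, a peptide hormone of blood vessels, and Adm+/- mice, from a germline knockout line that the study's methods describe as backcrossed from 129/SvEv to C57BL/6J, carry a single functional copy in every cell. Mice of each genotype received intraperitoneal lipopolysaccharide (LPS, a bacterial endotoxin, here from Escherichia coli O55:B5) at 6 mg/kg, or phosphate-buffered saline (PBS), as 3 daily doses from postnatal day 3, and the lungs were taken on postnatal day 5, 6 h after the last dose. The groups are called WT PBS (libraries 3, 4 and 5), WT LPS (9, 10 and 11), Adm+/- PBS (6, 7 and 8) and Adm+/- LPS (1, 2 and 12), and the numbers are those of the sample labels. Litter and sex were not given in the labels.

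IL-1 alpha and IL-1 beta are alarm cytokines made mainly by myeloid and barrier cells. Both bind the receptor subunit encoded by Il1r1, which then recruits the accessory protein encoded by Il1rap and signals through MyD88 and NF-kappa B. The antagonist encoded by Il1rn occupies Il1r1 without signalling, and Il1r2 binds IL-1 but has no signalling domain, so that it acts as a decoy. IL-33, a nuclear alarmin of structural cells, signals through Il1rl1 (ST2) with the same accessory protein. IL-18, matured by caspase-1 like IL-1 beta, is bound and blocked by the product of Il18bp. In newborn lung, IL-1 signalling is known for its link to inflammation and disturbed alveolar growth.

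Levels are given as CPM, the usual unit of counts scaled to a common library size, here after TMM normalization. Total counts per library ranged from 22382535 to 38062873. The lowest member count in a library was 2 (Il1r2) and the highest 4809 (Il33). A gene was called changed at a Benjamini-Hochberg adjusted p below 0.05 over all 15885 tested genes and an absolute log2 fold change above 0.5, in edgeR's quasi-likelihood test. Nothing in the labels says that mice of a group came from separate litters, so the p-values measure the spread between these mice. Some facts of the libraries touch the results. Adm itself was at 3.96 to 7.09 CPM in WT PBS, 4.46 to 8.15 in WT LPS, 2.87 to 4.58 in Adm+/- PBS and 3.74 to 6.28 in Adm+/- LPS, with a log2 difference of -0.50 ± 0.32 (SE) between Adm+/- and WT mice under PBS and of -0.55 ± 0.31 under LPS, neither past the threshold (adjusted p = 0.999 and 0.480). The transcript Gm26917 held 16.6% of the counts of WT PBS 5 and 13.3% of those of Adm+/- PBS 6, against 5.42 to 7.40% in the other 10 libraries. WT PBS 5 was the lowest WT PBS library for every member other than Il1b and Il18bp. WT PBS 4 stood apart from the other PBS libraries in inflammatory genes (Saa3 at 38.1 CPM against 0.835 to 1.61 in the other 5). All WT LPS libraries held skeletal muscle transcripts, and WT LPS 9 and WT LPS 11 held squamous epithelium transcripts, as given beside the results below.

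Some of the genes lie close together in the mouse genome (mm10, Gencode M21). On chromosome 1, on the plus strand, lie Il1r2 (40074079 to 40125231), Il1r1 (40225080 to 40317257) and Il1rl1 (40429570 to 40465415). Chromosome 2 holds Il1rn (24336853 to 24351494, plus strand), Il1a (129299610 to 129309972, minus strand) and Il1b (129364570 to 129371139, minus strand). Il18bp is on chromosome 7 (102014885 to 102018690, minus strand), Il18 on chromosome 9 (50554827 to 50581840, plus strand), Il1rap on chromosome 16 (26581704 to 26730117, plus strand) and Il33 on chromosome 19 (29925114 to 29960718, plus strand). Exons of 4 members overlap a gene on the other strand: Il1a with Gm14023 by 222 bases, Il1b with Il1bos by 25, Il18bp with Numa1 by 80 and Il1rap with Gm20319 by 552. The library kit keeps strand, but the strand option of the counting is not given in the sources used here, so reads in these stretches may have been assigned to neither gene or to the partner. Counts per gene do not separate transcripts, so the secreted and intracellular forms of the Il1rn product and the soluble and membrane-bound forms of ST2 were measured together.

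Upstream sequences are shown for 4 members that rose after LPS, to place their motifs. RefSeq (GRCm38.p6) gave 15 transcription starts for the 10 members, and the 250 bases before each start were searched on both strands for 3 motifs of inflammatory transcription factors. AP-1 was searched as TGANTCA, C/EBP as TTNNGNAA and NF-kappa B by its degenerate consensus. Over all 32851 RefSeq starts of this length, 6.75% held the AP-1 motif, 36.8% the C/EBP motif and 7.25% the NF-kappa B motif. In the lines below, 5′ to 3′ on the gene's strand, capitals mark a motif match. The stretches are chr2:129309973-129310222 (minus) for Il1a, chr2:129371140-129371389 (minus) for Il1b, chr2:24336610-24336859 (plus) and chr2:24345041-24345290 (plus) for the first 2 of 3 starts of Il1rn, and chr1:40266336-40266585 (plus) for the downstream start of Il1r1.
Il1a: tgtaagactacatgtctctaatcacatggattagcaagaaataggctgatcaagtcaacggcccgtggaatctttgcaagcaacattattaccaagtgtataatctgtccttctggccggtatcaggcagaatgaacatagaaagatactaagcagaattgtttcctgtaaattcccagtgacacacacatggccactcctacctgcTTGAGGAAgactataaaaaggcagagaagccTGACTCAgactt
Il1b: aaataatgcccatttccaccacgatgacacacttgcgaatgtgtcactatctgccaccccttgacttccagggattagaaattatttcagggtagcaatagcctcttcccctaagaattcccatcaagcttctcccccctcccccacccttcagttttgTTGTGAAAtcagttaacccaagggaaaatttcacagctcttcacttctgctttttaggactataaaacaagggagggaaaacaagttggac
Il1rn, start 1: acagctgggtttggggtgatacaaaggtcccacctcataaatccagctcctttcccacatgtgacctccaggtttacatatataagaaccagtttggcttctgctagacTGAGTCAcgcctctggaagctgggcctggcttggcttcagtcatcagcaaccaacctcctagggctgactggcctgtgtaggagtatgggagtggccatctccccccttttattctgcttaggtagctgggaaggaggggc
Il1rn, start 2: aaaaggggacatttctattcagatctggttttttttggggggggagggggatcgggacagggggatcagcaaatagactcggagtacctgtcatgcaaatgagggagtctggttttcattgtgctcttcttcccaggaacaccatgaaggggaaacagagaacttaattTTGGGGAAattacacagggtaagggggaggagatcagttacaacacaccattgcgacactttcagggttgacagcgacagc
Il1r1, downstream start: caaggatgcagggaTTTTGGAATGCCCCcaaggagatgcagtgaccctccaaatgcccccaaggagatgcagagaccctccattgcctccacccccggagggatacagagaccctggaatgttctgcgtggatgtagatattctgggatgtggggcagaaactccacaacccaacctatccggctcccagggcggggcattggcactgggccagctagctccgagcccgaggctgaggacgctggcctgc
An AP-1 match stood 12 bases before the start of Il1a and 141 bases before start 1 of Il1rn, and at no other of the 15 starts. C/EBP matches were found at 11 of 15 starts and in 7 of 10 members, among them Il1b (91 bases before the start) and Il18bp (49 bases), so that this motif was present in a member called after LPS and in one that was not. The NF-kappa B consensus was found at 1 start, the downstream start of Il1r1 (232 bases before it), where it overlaps a C/EBP match. A match is a description of the letters and not a binding site, and Il1r2, Il18 and Il1rap held none of these letters in this window.

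LPS raised most of the family in both genotypes. In WT mice 6 of the 10 members were called higher and none lower, against 10.5% of all tested genes called higher, and the median log2 fold change of the members was 1.0 against 0.01 over all tested genes. In Adm+/- mice 8 of the 10 were called higher and none lower, against 12.8% of all tested genes, with a median of 2.31 against -0.01. Il1a, Il1b, Il33, Il1rn, Il1rap and Il1r2 were called in both genotypes, Il1r1 and Il1rl1 in Adm+/- mice, and Il18 and Il18bp in neither. Judged by the libraries alone, the lowest LPS library lay above the highest PBS library for 7 members in WT mice, where 18.3% of all tested genes did so, and for all 10 members in Adm+/- mice, where 26.6% did. Requiring a fold change significantly beyond the threshold (limma-voom with treat) left 3 members in WT mice (Il1b, Il1rn and Il1r2) and 6 in Adm+/- mice (the same genes with Il1a, Il33 and Il1r1). The WT count of 6 was 4 in the 6 WT libraries alone and 4 to 8 over the fits without 1 library. In bulk tissue fewer cells of a type and less RNA per cell cannot be told apart, and this holds for every value below.

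**Figure D1:**
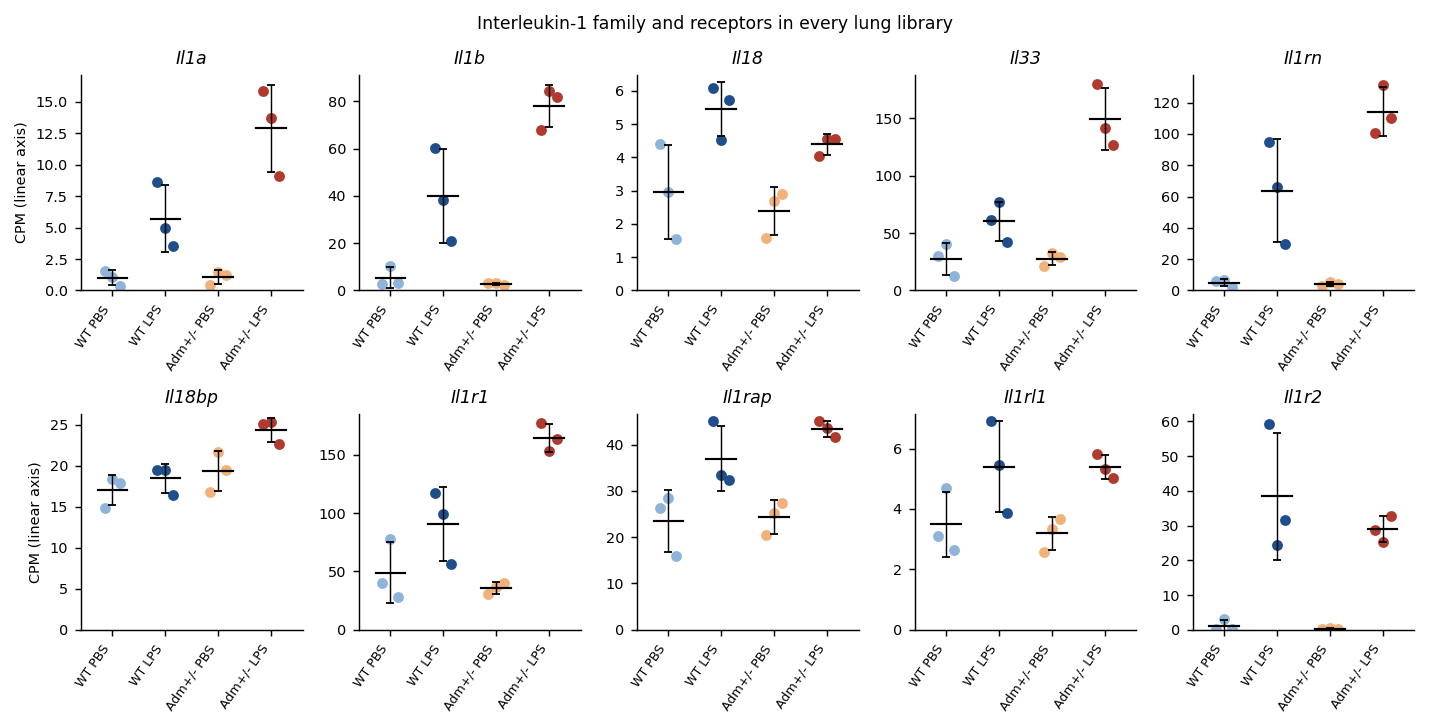
CPM of each member (vertical axis, linear from 0) in the 3 libraries of each group (points, ordered by library number), with the mean (line) and SD (error bar). The Adm+/- LPS libraries of Il1b (67.8 to 84.5 CPM), Il1rn (100.9 to 131.6) and Il33 (127.1 to 179.8) lie above every other library, and Il1r2 is near 0 in PBS lungs of both genotypes.

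**Figure D2:**
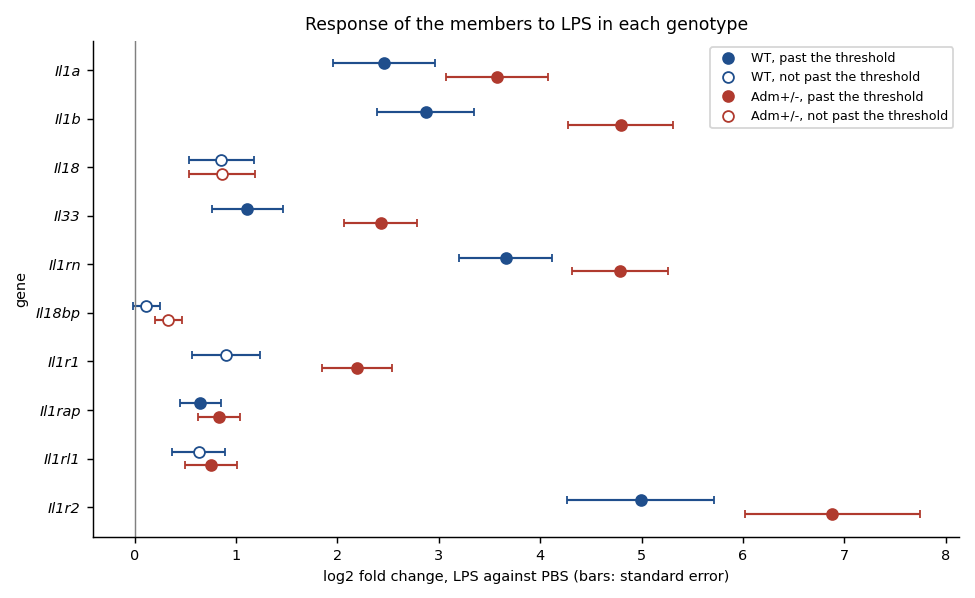
Log2 fold change of LPS against PBS (horizontal axis) for each member (vertical axis) in WT mice (blue) and Adm+/- mice (red), with the standard error as bars. Filled points passed the threshold (6 members in WT and 8 in Adm+/- mice), and all 10 values are above 0 in both genotypes.

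Among the ligands in the 10 members, Il1b had the largest fold change in both genotypes. It was counted at 2.72, 10.4 and 3.27 CPM in WT PBS and at 60.5, 38.3 and 21.03 CPM in WT LPS. In Adm+/- PBS it stood at 3.05, 2.94 and 2.47 CPM and in Adm+/- LPS at 67.8, 84.5 and 82.0 CPM. LPS and PBS groups did not overlap in either genotype, WT PBS 4 was the highest PBS library and WT LPS 11 the lowest LPS library. The log2 fold change was 2.87 ± 0.48 (SE) in the WT comparison (adjusted p = 0.00216), a 7.32-fold rise, and 4.79 ± 0.52 in Adm+/- mice (adjusted p = 0.000105), a 27.7-fold rise. Without WT PBS 4 the value in WT mice was 3.74 on the log2 scale. Under each of 21 alternative settings the rise was called in both genotypes.

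Il1a encodes the other IL-1 ligand, which is active without cleavage and is released from damaged cells. It was at 1.55, 1.07 and 0.371 CPM in WT PBS and at 8.66, 4.99 and 3.50 CPM in WT LPS. Among Adm+/- mice the PBS libraries held 0.421, 1.49 and 1.23 CPM and those after LPS 15.9, 13.7 and 9.09 CPM. The groups did not overlap, and WT LPS 11 was again the lowest LPS library. The log2 rise of Il1a was 2.46 ± 0.51 in WT mice (adjusted p = 0.00657) against 3.57 ± 0.50 in Adm+/- mice (0.000419). The WT call was lost in limma-voom with treat (adjusted p = 0.0768). Gm14023, which overlaps it on the other strand, was at 0.477 to 1.94 CPM in the 12 libraries, highest in the Adm+/- LPS libraries, and the share of reads the genes could have exchanged was not tested.

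Il33, the alarmin of epithelial, endothelial and stromal nuclei, had the highest mean level per length of all members in both PBS groups. In WT PBS 5 alone, Il18bp was higher (5.90 against 4.39 CPM per kb of exon). The values of Il33 in CPM follow. Il33 was at 30.4, 40.2 and 12.7 CPM in WT PBS and at 61.0, 77.0 and 42.4 CPM in WT LPS. The values were 21.3, 32.7 and 29.3 CPM in Adm+/- PBS and 179.8, 141.6 and 127.1 CPM in Adm+/- LPS. All Adm+/- LPS libraries were thus above all WT LPS libraries, while WT LPS 11 exceeded WT PBS 4 by little. Its log2 rise was 1.11 ± 0.35 in WT mice (adjusted p = 0.0430) against 2.43 ± 0.36 in Adm+/- mice (0.000564). The WT call was near the threshold: it was lost when WT PBS 3, WT PBS 5, WT LPS 9, WT LPS 10, Adm+/- PBS 7, Adm+/- PBS 8, Adm+/- LPS 1, Adm+/- LPS 2 or Adm+/- LPS 12 was left out (adjusted p from 0.0546 to 0.123), in a fit of the 6 WT libraries (0.134) and with treat (0.387). The Adm+/- call held in all 21 alternatives.

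Il18 was the member ligand with the smallest rise, and it was not called. It was at 4.39, 2.96 and 1.54 CPM in WT PBS, 6.07, 4.53 and 5.73 CPM in WT LPS, 1.58, 2.70 and 2.90 CPM in Adm+/- PBS and 4.04, 4.57 and 4.56 CPM in Adm+/- LPS. Each LPS library lay above each PBS library of its genotype, by a narrow gap in WT mice (4.53 against 4.39 CPM). The log2 fold changes were 0.86 ± 0.32 in both genotypes, with adjusted p = 0.0759 in WT and 0.0632 in Adm+/- mice. DESeq2 called both (adjusted p = 0.0357 and 0.0283), and so did the fit without WT PBS 3 (0.0228 and 0.0362). The Adm+/- rise was also called without WT PBS 5 (0.0162), without WT PBS 5 and Adm+/- PBS 6 (0.0383) and in the 6 Adm+/- libraries alone (0.0182).

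The antagonist gene Il1rn rose in both genotypes, as Il1b did. It was at 5.94, 6.60 and 2.35 CPM in WT PBS and at 95.0, 66.4 and 29.4 CPM in WT LPS. Adm+/- PBS libraries held 2.58, 5.27 and 4.37 CPM and Adm+/- LPS libraries 100.9, 131.6 and 110.1 CPM. No LPS library came near a PBS library, and as for Il1b the Adm+/- LPS values were all above the WT LPS values. The log2 fold change was 3.66 ± 0.45 in WT lungs (adjusted p = 0.000480), a 12.6-fold rise, and 4.79 ± 0.48 in Adm+/- mice (adjusted p = 7.68e-05), a 27.6-fold rise, both called under all 21 alternatives. The fold change of Il1rn was not tested against that of Il1b.

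Il18bp, whose product neutralises IL-18, was the steadiest member. It was at 14.9, 18.3 and 17.9 CPM in WT PBS, 19.4, 19.4 and 16.4 CPM in WT LPS, 16.8, 21.7 and 19.5 CPM in Adm+/- PBS and 25.1, 25.3 and 22.7 CPM in Adm+/- LPS. The WT groups overlapped, and the Adm+/- groups were separated by less than 1 CPM (21.7 against 22.7 CPM). Log2 fold changes were 0.12 ± 0.13 (adjusted p = 0.556) in WT and 0.33 ± 0.13 (adjusted p = 0.0820) in Adm+/- mice. They were called under none of the 21 alternatives, each of which missed both the p and the fold threshold.

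Il1r1 encodes the signalling receptor subunit for both IL-1 ligands. It was at 40.1, 78.1 and 27.9 CPM in WT PBS and at 117.3, 99.2 and 56.1 CPM in WT LPS, so that WT PBS 4 was above WT LPS 11 and the WT groups overlapped. In Adm+/- PBS it was at 30.7, 36.9 and 40.5 CPM, and in Adm+/- LPS at 177.5, 153.4 and 163.5 CPM. The Adm+/- rise was 2.19 ± 0.35 on the log2 scale (adjusted p = 0.000813), called under all 21 alternatives. The WT value was 0.90 ± 0.33 (adjusted p = 0.0753). It was called without WT PBS 4 (1.41, adjusted p = 0.00779), without WT LPS 11 (1.15, adjusted p = 0.0341) and with DESeq2 (0.90, adjusted p = 0.0312), and in no other setting. The lowest value over the alternatives was 0.62 (without WT PBS 5, adjusted p = 0.183), and without WT LPS 9 it was 0.67 (adjusted p = 0.279).

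Il1rap encodes the accessory chain shared by the IL-1 and IL-33 receptors. It was at 26.3, 28.4 and 15.9 CPM in WT PBS, 45.1, 33.4 and 32.5 CPM in WT LPS, 20.4, 25.3 and 27.4 CPM in Adm+/- PBS and 45.2, 43.5 and 41.7 CPM in Adm+/- LPS. The LPS libraries were above the PBS libraries in both genotypes. Its log2 rise was 0.65 ± 0.21 in WT mice (adjusted p = 0.0436) against 0.83 ± 0.20 in Adm+/- mice (0.0102), the smallest rise among members called in both. The WT call was lost without WT PBS 5, WT LPS 9, WT LPS 10, Adm+/- PBS 7, Adm+/- PBS 8, Adm+/- LPS 1, Adm+/- LPS 2 or Adm+/- LPS 12 (adjusted p from 0.0551 to 0.197), in the 6 WT libraries alone (0.149) and without WT PBS 5 and Adm+/- PBS 6 (log2 value 0.43). With treat both calls were lost (adjusted p = 1 and 0.381).

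Il1rl1 encodes ST2, the IL-33 receptor of mast cells, innate lymphoid cells and regulatory T cells, and it had the lowest level per length of the members after LPS. It was at 3.11, 4.71 and 2.66 CPM in WT PBS, 6.90, 5.45 and 3.86 CPM in WT LPS, 2.58, 3.35 and 3.66 CPM in Adm+/- PBS and 5.83, 5.32 and 5.02 CPM in Adm+/- LPS. WT PBS 4 was above WT LPS 11, so the WT groups overlapped, and the Adm+/- groups did not. The WT value of 0.63 ± 0.26 on the log2 scale was not called (adjusted p = 0.101), except without WT PBS 4 (0.90, adjusted p = 0.0382) or WT LPS 11 (0.82, adjusted p = 0.0486). The Adm+/- rise of 0.75 ± 0.26 was called at an adjusted p of 0.0454 and was lost without WT PBS 3, WT LPS 10, Adm+/- PBS 6, 7 or 8 or Adm+/- LPS 1, 2 or 12 (adjusted p from 0.0519 to 0.148), without a filter on low counts (0.0544), without WT PBS 5 and Adm+/- PBS 6 (0.0839) and with treat (0.804).

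Il1r2, the decoy receptor of neutrophils and other myeloid cells, had the steepest rise of the family. It was at 0.311, 3.15 and 0.124 CPM in WT PBS and at 59.2, 24.5 and 31.7 CPM in WT LPS. Adm+/- PBS libraries held 0.105, 0.372 and 0.199 CPM, which were counts of 2, 11 and 5, and Adm+/- LPS libraries 28.7, 25.3 and 32.9 CPM. The LPS groups of the genotypes overlapped, and the highest library was WT LPS 9. The log2 fold change was 4.99 ± 0.73 for the WT groups (adjusted p = 0.00106), and for the Adm+/- groups it was 6.88 ± 0.86 (0.000217), called in all 21 alternatives. The sizes rest on very low PBS counts: in WT PBS the counts were 8, 65 and 2, and without WT PBS 4 the WT value was 7.32.

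The order of the members by level per length, in CPM per kilobase of exon, changed with LPS. In WT PBS Il33 (9.62 ± 4.84 CPM per kb, SD, n = 3), Il1r1 (7.66 ± 4.11) and Il18bp (5.63 ± 0.62) stood at the top with ranges that overlapped, and Il1a (0.505 ± 0.301) and Il1rl1 (0.506 ± 0.156) at the bottom. In WT LPS Il1b (20.9 ± 10.4), Il33 (20.8 ± 6.0) and Il1r2 (20.1 ± 9.6) led, and the ranges of neighbours overlapped down to Il18. In Adm+/- PBS Il33 (9.62 ± 2.02) was above Il18bp (6.39 ± 0.82) without overlap, and Il1r2 (0.118 ± 0.071) came last. In Adm+/- LPS Il33 (51.8 ± 9.4) and Il1b (40.97 ± 4.7) overlapped at the top, and Il1r1 (25.9 ± 1.9), Il1rn (20.6 ± 2.8), Il1r2 (15.2 ± 2.0) and Il18bp (8.04 ± 0.48) followed, each without overlap with the gene before it. Il1rl1 was last after LPS in both genotypes, at 0.784 ± 0.221 CPM per kb in WT and 0.782 ± 0.059 in Adm+/- mice.

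**Figure D3:**
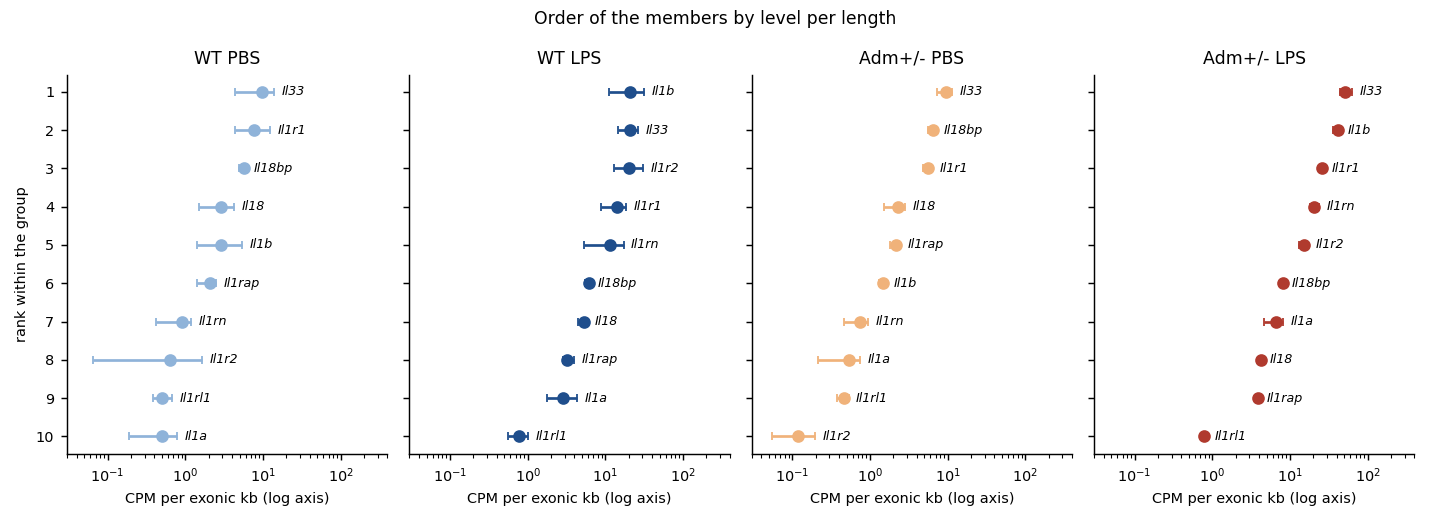
Members ordered by their mean level per length in each group (vertical axis: rank; horizontal axis: CPM per exonic kb, log scale; bars: lowest to highest of 3 libraries). Il1r2 moves from ranks 8 and 10 in the PBS groups to ranks 3 and 5 in the LPS groups.

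Ratios of levels per length within a library put ligands beside their antagonists and receptors, as descriptions without a test. Il1rn to Il1b was 0.482 to 0.597 in WT LPS and 0.463 to 0.536 in Adm+/- LPS, ranges that overlap, and 0.219 to 0.753 over the PBS libraries. This ratio was below 1 in all 12 libraries, but it depends on the length used, the merged exons of all transcripts of a gene: in CPM without length, Il1rn was above Il1b in all 6 LPS libraries. Il18bp to Il18 was 1.15 to 3.94 in the PBS libraries, 0.977 to 1.46 in WT LPS and 1.69 to 2.11 in Adm+/- LPS, so the LPS groups did not overlap. Il1b to Il1a was 1.81 to 10.1 in the PBS libraries, 6.21 to 7.94 in WT LPS and 4.42 to 9.34 in Adm+/- LPS. Il1r2 to Il1r1 was 0.0114 to 0.135 in the PBS libraries, 0.822 to 1.88 in WT LPS and 0.539 to 0.670 in Adm+/- LPS. The 3 Adm+/- LPS libraries had lower ratios than the 3 WT LPS libraries. Il33 to Il1rl1 was 11.4 to 23.4 in the PBS libraries, 21.1 to 33.8 in WT LPS and 60.4 to 73.6 in Adm+/- LPS, which was above every other library.

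**Figure D4:**
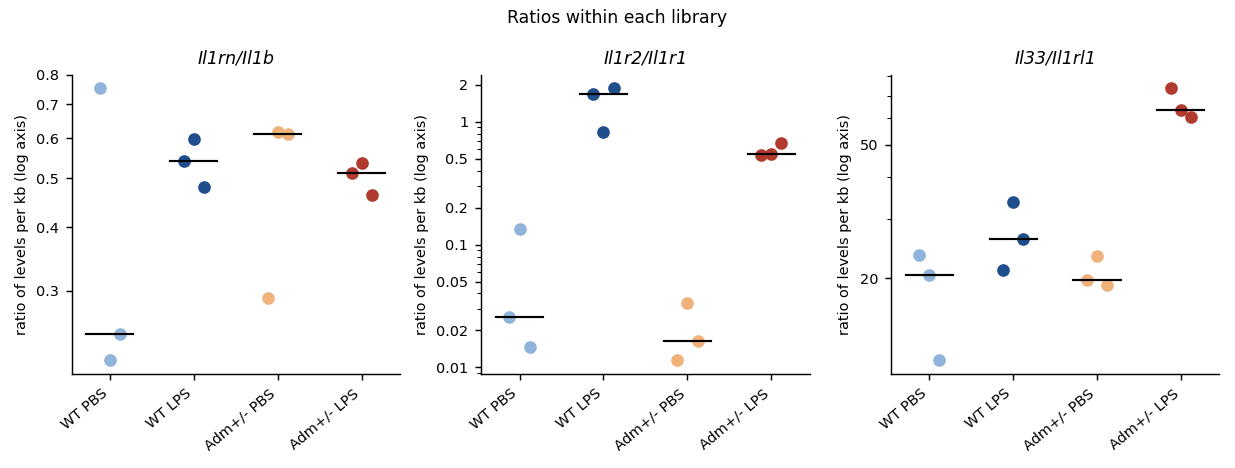
Ratio of levels per kb within each library (vertical axes, log scale) for Il1rn to Il1b, Il1r2 to Il1r1 and Il33 to Il1rl1 in the 4 groups, with the median as a line. The decoy to receptor ratio is below 0.14 in the PBS libraries and at least 0.539 in the LPS libraries.

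The difference between genotypes was tested directly for each member, and no call was made. For the difference of the LPS responses (Adm+/- minus WT), all 10 values were above 0, from 0.0039 for Il18 to 1.92 ± 0.66 for Il1b on the log2 scale, and none was called, against 0.145% of all tested genes, which were 23 genes with negative values (with DESeq2 46 positive and 122 negative). The lowest adjusted p was 0.455 for Il1b. The values for Il33 (1.32 ± 0.49, adjusted p = 0.503) and Il1r1 (1.29 ± 0.47, adjusted p = 0.490) had, like Il1b, an unadjusted p below 0.05 (0.0203, 0.0183 and 0.0134), and these were 3 of 10 members, against 1247 of the 15885 tested genes. DESeq2, limma-voom and the other alternatives that give this difference made 0 calls among the members. The Il1b difference was 1.05 without WT PBS 4, and the Il1r2 difference of 1.89 ± 1.16 (adjusted p = 0.808) turned to -0.44 without that library. The Il1b difference of responses holds a value of 0.97 between the genotypes under LPS and of -0.95 under PBS.

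Under LPS the Adm+/- libraries lay above the WT libraries for 6 of the 10 members, Il1a, Il1b, Il33, Il1rn, Il18bp and Il1r1, where 12.2% of all tested genes did so. None of the 10 was called, against 2.05% of all tested genes, of which 52 were higher and 273 lower in Adm+/- mice, and 5 had an unadjusted p below 0.05, as did 2275 of the 15885 tested genes. Il33 had the largest difference, 1.31 ± 0.35 on the log2 scale (2.49-fold, adjusted p = 0.0761). It was called with DESeq2 (adjusted p = 0.00584), in the 6 LPS libraries alone (0.0334), without WT PBS 5 (0.0127) and without WT PBS 5 and Adm+/- PBS 6 (0.0111), and its value was 1.12 without WT LPS 11. Il1a (1.17 ± 0.44, adjusted p = 0.229), Il1b (0.97 ± 0.43, 0.335), Il1r1 (0.86 ± 0.33, 0.245), Il1rn (0.84 ± 0.40, 0.370) and Il18bp (0.40 ± 0.13, 0.167) were not called in any of the 21 alternatives. WT LPS 11 was the lowest LPS library for Il1a, Il1b, Il33, Il1rn, Il18bp and Il1r1, and without it the differences were 0.91 for Il1a, 0.66 for Il1b, 0.50 for Il1rn and 0.61 for Il1r1. Skeletal muscle markers also moved in this comparison, with sums of 961 to 2280 CPM in WT LPS and 35.02 to 62.3 CPM in Adm+/- LPS and 11 of 12 called lower in Adm+/- mice, as did squamous epithelium markers, with sums of 38.8 to 3483 and 13.6 to 54.9 CPM and 5 of 11 called lower, and their part in the members' values was not tested. Il18 (-0.31 ± 0.31), Il1rap (0.23 ± 0.20), Il1rl1 (-0.01 ± 0.25) and Il1r2 (-0.41 ± 0.57) overlapped between the genotypes.

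Under PBS none of the members was called between the genotypes, and 0.0% of all tested genes were called (344 at an unadjusted p below 0.05, and 0 calls with DESeq2 or limma-voom). All 10 members overlapped between the groups. The largest value was that of Il1r2, -2.30 ± 0.99 on the log2 scale (adjusted p = 0.999), which was 0.03 without WT PBS 4. Il1b was at -0.95 ± 0.50 (adjusted p = 0.999), and at -0.08 without WT PBS 4. A p that misses the threshold does not show that the levels were equal.

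The closest companions of the members over the 12 libraries were found by the root mean square (RMS) distance of log2 CPM profiles, each centred on its mean, among 14600 genes with a mean of at least 1 CPM. For Il1b they were Serpina3c (0.298), Irak3 (0.349), a brake on MyD88 signalling, and Saa1 (0.410), an acute phase protein. Il1rn was nearest to Slc7a11 (0.271), the cystine transporter, Ccl9 (0.347) and Tnip3 (0.356). For Il1r2 they were BC100530 (0.359), Prok2 (0.442) and S100a8 (0.506), which is an abundant neutrophil protein. Il33 and Il1r1 shared Has2, a hyaluronan synthase, at 0.281 and 0.180, with Litaf (0.263) and Asb4 (0.286) for Il33 and Rab20 (0.182) and Apobec3 (0.183) for Il1r1. Genes near Il1a were Cyp1b1 (0.457) and Adora3 (0.506), Il1rap was nearest to Ptpn12 (0.068), Tbc1d15 (0.081) and Tbk1 (0.093), and Il1rl1 to Slc19a2 (0.148), Pfkfb2 (0.149) and Cebpg (0.154). The median distance over the 14600 genes ranged from 0.513 for Il1rl1 to 3.29 for Il1r2, so that a distance reads against the spread of its own member. All libraries share the treatment groups, and likeness says nothing of shared control.

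Other genes of the pathway were taken from lists that were fixed, like the members, with earlier results of these data known. Genes named here only to complete a count were chosen after their values were seen. Of 5 other IL-1 superfamily ligands, 1 had enough counts to be tested, Il1f9 (IL-36 gamma, an epithelial and myeloid cytokine). It rose from 0.705 ± 0.822 to 9.34 ± 5.48 CPM (SD) in WT lungs and from 0.350 ± 0.210 to 12.6 ± 2.1 CPM in Adm+/- mice, by 3.74 and 5.11 on the log2 scale (adjusted p = 0.00313 and 0.000396). Of 6 other receptors 4 were tested, 1 of which was called higher in WT mice, and 2 higher and 1 lower in Adm+/- mice (list medians 0.21 and 0.49). Il18rap, the accessory chain of the IL-18 receptor, rose by 2.71 and 2.94 on the log2 scale (adjusted p = 0.000316 and 9.72e-05), from 4.17 ± 0.81 to 27.3 ± 10.4 CPM in WT and from 4.24 ± 1.68 to 32.2 ± 4.8 CPM in Adm+/- mice. Its partner Il18r1, the most abundant of the list, was at 0.08 and 0.19 (adjusted p = 0.656 and 0.281). Il1rl2, the IL-36 receptor, was at 0.33 in WT mice (adjusted p = 0.236) and rose by 0.79 in Adm+/- mice (adjusted p = 0.00961), where the inhibitory receptor Sigirr fell by 0.63 (adjusted p = 0.0136). The call on Sigirr was lost without Adm+/- PBS 6 or Adm+/- LPS 2, a second receptor was called in WT mice without WT LPS 9, Adm+/- PBS 6 or Adm+/- PBS 7, and with treat 1 was called in Adm+/- mice.

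Of 12 receptor-proximal signalling genes, all tested, 2 were called higher in WT mice and 4 in Adm+/- mice and none lower, with list medians of 0.17 and 0.21 against 0.01 and -0.01 over all tested genes. Irak3, which restrains the kinases downstream of MyD88, rose by 3.18 (adjusted p = 0.000442) and 3.97 (adjusted p = 8.02e-05) on the log2 scale, from 6.56 ± 3.57 to 59.6 ± 27.5 CPM in WT lungs and from 4.93 ± 0.94 to 77.2 ± 5.6 CPM in Adm+/- mice. Myd88, the adaptor of the IL-1 and Toll-like receptors, rose by 0.91 and 1.70 (adjusted p = 0.00793 and 0.000143). Irak2 and Irak4, kinases of the same complex, made up the count in Adm+/- mice with 0.64 and 0.68 (adjusted p = 0.0226 and 0.00605). The most abundant genes of the list, Tab2 (0.25 and 0.20) and Map3k7 (0.10 and 0.13), which encode parts of the TAK1 complex, were not called in either genotype. With treat 1 gene was called in WT and 2 in Adm+/- mice, and in the 6 WT libraries alone 1 was called.

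Of 14 genes for maturation and release of IL-1 beta and IL-18, 13 were tested, and 11 were called higher in WT mice and 9 in Adm+/- mice, with medians of 1.0 in both. Casp4, the caspase that senses intracellular LPS, rose by 2.27 (adjusted p = 0.0180) and 3.72 (adjusted p = 0.000985) on the log2 scale, from 5.51 ± 5.42 to 26.6 ± 11.5 CPM in WT lungs and from 3.61 ± 1.56 to 48.1 ± 5.5 CPM in Adm+/- mice. Ctsc, the activator of neutrophil serine proteases and the most abundant of the list, rose by 0.85 and 0.996 (adjusted p = 0.0271 and 0.00858). Ctsg, a protease of neutrophil granules, was at or below 3 counts in every PBS library, and its LPS level was at least 3.77-fold higher in WT and at least 5.54-fold higher in Adm+/- mice against a floor of 3 counts per library. Casp8 was at -0.21 and -0.24 (adjusted p = 0.130 and 0.0765). Nlrp1b, an inflammasome sensor, was the gene called lower in Adm+/- mice (-1.34, adjusted p = 0.0119). The WT count of 11 was 5 without WT LPS 9, 4 in the 6 WT libraries and 3 with treat, and the Adm+/- count of 9 was 5 with treat.

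Genes that IL-1 is known to induce, which LPS can also induce through other receptors, rose broadly. Of 20 tested, 16 were called higher in WT mice and 20 in Adm+/- mice, with medians of 1.81 and 3.32. The 4 not called in WT mice were Il6, Ptgs2, Nfkbiz and Vcam1 (0.54, 0.38, 0.53 and 0.27). Saa3, an acute phase apolipoprotein, rose from 13.6 ± 21.1 to 813 ± 452 CPM in WT lungs and from 1.15 ± 0.38 to 1488 ± 137 CPM in Adm+/- lungs (log2 5.90 and 10.36, adjusted p = 0.00408 and 0.000294). The WT PBS mean of Saa3 rested on WT PBS 4 (38.1 CPM, against 1.24 and 1.61 CPM in WT PBS 3 and 5). The size of its WT rise therefore depends on that library. Lcn2, the iron-withholding lipocalin, rose by 3.99 and 5.43 (adjusted p = 0.000266 and 5.91e-05). Cxcl2, a neutrophil attractant, rose by 4.31 in WT lungs (adjusted p = 0.00350). In Adm+/- mice, where every PBS library was at or below 3 counts, it reached 37.8 ± 8.9 CPM, at least 299-fold above the floor. Between the genotypes under LPS, 2 of the 20 were called higher in Adm+/- mice, Sele (2.52, adjusted p = 0.0388) and Csf2 (1.42, adjusted p = 0.0494), and no gene was called for the difference of responses. The WT count of 16 was 9 without WT LPS 9, 6 in the 6 WT libraries and 2 with treat.

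**Figure D5:**
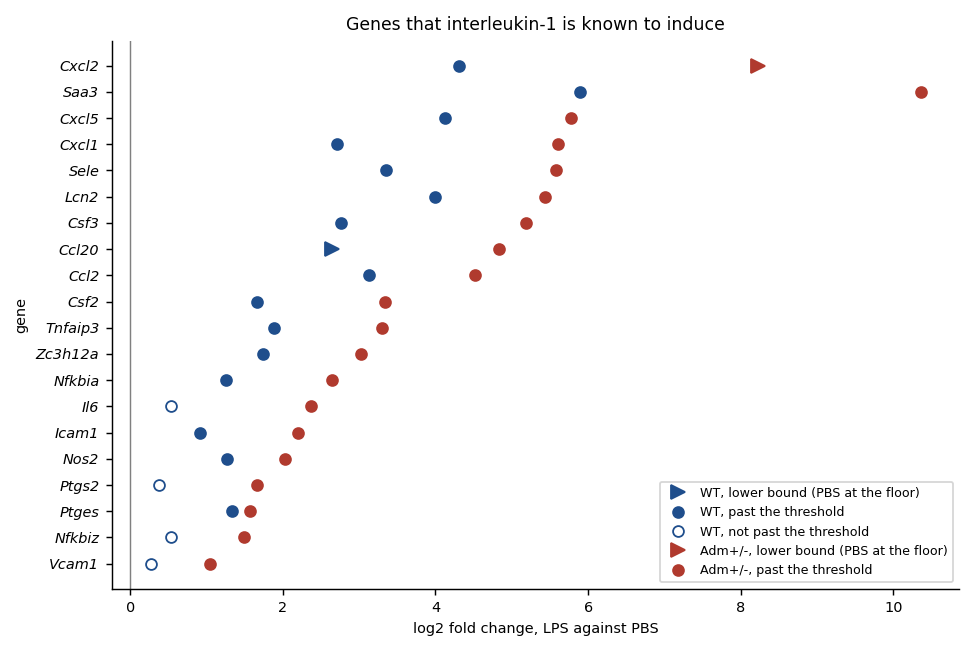
Log2 fold change of LPS against PBS (horizontal axis) for 20 genes that IL-1 is known to induce (vertical axis) in WT mice (blue) and Adm+/- mice (red). Filled points passed the threshold (16 in WT and 20 in Adm+/- mice, bounds included), and triangles are lower bounds where all PBS libraries had 3 counts or fewer.

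Genes linked to IL-33 and IL-18 moved in part. Of 14 genes 11 were tested, and 4 were called higher in WT mice, and 8 higher and 1 lower in Adm+/- mice (medians 1.03 and 2.07). Retnla and Chil3, products of alternatively activated macrophages, rose by 1.98 and 3.20 in WT mice (adjusted p = 0.00737 and 0.000560) and by 2.99 and 3.95 in Adm+/- mice (adjusted p = 0.000471 and 0.000107). Gata3 was the gene called lower in Adm+/- mice (-1.43, adjusted p = 0.00254). The Adm+/- count of 8 was 5 without Adm+/- LPS 1 and 4 with treat, and the WT count of 4 was 2 with treat.

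Markers of the cells that could carry these transcripts were counted beside the members. Of 12 neutrophil markers, 11 were called higher in WT and 12 in Adm+/- mice, and their summed level went from 65.6 to 198 CPM in WT PBS to 1788 to 3114 in WT LPS, and from 44.1 to 73.8 in Adm+/- PBS to 1688 to 2014 in Adm+/- LPS. S100a8, S100a9 and Ltf were the most abundant of them, WT LPS 9 was highest and WT PBS 4 was the highest PBS library, as for Il1r2. No neutrophil marker was called between the genotypes under LPS. Of 12 monocyte and macrophage markers, 9 and 8 were called higher, with summed levels of 1088 to 1307 and 1725 to 2303 CPM in WT mice and of 1043 to 1271 and 1944 to 2402 CPM in Adm+/- mice. Lyz2 is in this list and in the type II pneumocyte list below, and it counts in the sums of both. Between the genotypes under LPS the median of these 12 markers was -0.16 on the log2 scale, and 1 of them was called, Cd14, the LPS co-receptor, which was higher in Adm+/- mice (1.68, adjusted p = 0.0159), with WT LPS 11 the lowest LPS library, as for Il1b. Of the cells that carry ST2, mast cell and basophil markers (0 of 8 called in WT, 1 higher in Adm+/- mice) summed to 338 to 489 CPM in the other groups and 527 to 552 CPM in Adm+/- LPS, most of it Kit, Gata2 and Hdc, which other lung cells also express, and lymphoid markers (1 of 12 higher in WT, 2 higher and 1 lower in Adm+/- mice) to 88.4 to 124 CPM over all libraries. The part of any cell type in the members' values was not tested.

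Lung markers were present in every library. Type II pneumocyte markers (Sftpc, Slc34a2 and Sftpb the most abundant) summed to 14423 to 18605 CPM over the 12 libraries, with 1 of 10 called in WT and 3 higher and 2 lower in Adm+/- mice. Type I pneumocyte markers summed to 2563 to 3047 CPM (1 of 8 and 2 of 8 called higher), and endothelial markers to 2892 to 3897 CPM (2 of 10 called lower in each genotype). Lung fibroblast markers, led by Col1a1, summed to 10976 to 31512 CPM in PBS and 7492 to 10834 CPM in LPS libraries, where the highest values were those of WT PBS 5 (31512) and Adm+/- PBS 6 (21249) and the other 4 PBS libraries were at 10976 to 11906 (2 of 8 higher and 1 lower in WT, 1 higher and 2 lower in Adm+/- mice). Skeletal muscle markers summed to 961 to 2280 CPM in WT LPS and to 21.4 to 62.3 CPM elsewhere, with 11 of 12 called higher in WT and 1 in Adm+/- mice. Squamous epithelium markers summed to 38.8 to 3483 CPM in WT LPS and to 8.71 to 54.9 CPM elsewhere (9 of 11 called higher in WT and 0 in Adm+/- mice), and Krt13 was at 1027, 9.52 and 542 CPM in WT LPS 9, 10 and 11.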

How the data were processed

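Per the study's methods and the labels, reads were trimmed (Trim Galore), aligned to mm10 (HISAT2) and assigned to Gencode genes (featureCounts) by the authors. The deposited table holds raw counts, whole numbers without normalization or filter, for 52550 genes in 12 libraries of 1 mouse each. The strand option and the Gencode release are not given in the sources used here. Gene positions, overlaps and exon lengths were taken from Gencode M21, and upstream sequences from RefSeq on GRCm38.p6.

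The software was R 4.3.3 and its packages edgeR (4.0.16), limma (3.58.1) and, for an alternative, DESeq2 (1.42.0). The 15885 protein-coding genes that passed filterByExpr were normalized by TMM, and the quasi-likelihood test of edgeR was applied to all of them in a single fit with 1 coefficient per group, no covariate and 8 residual degrees of freedom. P-values were adjusted over all tested genes (Benjamini-Hochberg). Standard errors of the fold changes were derived from the test, as the absolute log2 fold change divided by the square root of the F statistic. CPM used TMM-scaled library sizes, and profiles used a prior count of 2. A group at 3 counts or fewer in each library was treated as at the floor. Precision from depth covers counting error only, since reads carry no molecular identifiers. Within groups, each pair of libraries differed by more than counting error (ratios of chi-square to its degrees of freedom of 16.04 to 176.8). Library numbers are not shared between groups, so no samples were paired.

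The 10 members, the 6 pathway lists and the 10 marker lists were chosen with earlier results of these data known. Named genes are the members, Adm, the 2 most abundant and the 2 most changed called genes of each pathway list, the 3 most abundant markers where values are given, and the 3 genes of nearest profile (mean of at least 1 CPM) for each called member. Of these, 2 genes are not reported here. 5 listed genes were found under older symbols, such as Il1f9 for IL-36 gamma. The 21 alternatives were RLE size factors, DESeq2, limma-voom, limma-voom with treat, no filter on low counts, at least 1 CPM in 3 libraries, all annotated genes, only the 6 libraries of a comparison, leaving out WT PBS 5 and Adm+/- PBS 6, and leaving out each of the 12 libraries.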

Additional observations from a re-analysis of the deposited data

How the results depend on the processing

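Of the values of the members in the 5 comparisons under 21 alternatives, 952 kept their direction and side of the threshold, 35 lost and 16 gained a call, and 36 changed sign, none of which had been called. The 6 members called in WT mice became 3 with limma-voom treat and 4 to 8 over the fits without 1 library. In Adm+/- mice the 8 called ranged from 7 to 9 over those fits. Between the genotypes under LPS, 1 member (Il33) in place of 0 was called with DESeq2, in the 6 libraries alone and without WT PBS 5 and Adm+/- PBS 6, and 0 to 1 without 1 library. No member was called for the difference of responses or under PBS in any setting. No paired analysis was possible because the groups share no replicate number.

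Over all tested genes, limma-voom treat gave 542 calls in WT mice (2791 in the test used), 1139 in Adm+/- mice (3968), 0 for the difference (23) and 79 between the genotypes under LPS (325). DESeq2 gave 168 for the difference and 803 between the genotypes under LPS, limma-voom gave 1 for the difference, the 6 WT libraries alone gave 1152, and leaving out WT PBS 5 and Adm+/- PBS 6 gave 548 between the genotypes under LPS. Without 1 library the counts were 1443 to 3074 in WT mice, 3033 to 4503 in Adm+/- mice, 5 to 65 for the difference and 81 to 573 between the genotypes under LPS. The cause of these shifts was not tested.

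For the difference of responses, Il18 (0.0039) was -0.0439 with limma-voom and with treat, -0.0020 without a filter and -0.40 to 0.30 without 1 library, Il1rl1 ranged from -0.15 to 0.35 and Il1r2 from -0.44 to 2.49. Between the genotypes under LPS, Il1rl1 was 0.0143 with limma-voom and with treat, 0.0020 without WT PBS 5 and Adm+/- PBS 6 and -0.20 to 0.22 without 1 library, and Il1r2 ranged from -0.65 to 0.05. Between the genotypes under PBS, Il33 was 0.11 with limma-voom and with treat, Il1rap was -0.0466 without WT PBS 5 and Adm+/- PBS 6, and the ranges without 1 library were -0.61 to 0.0856 for Il18, -0.28 to 0.54 for Il1a, -0.71 to 0.0802 for Il1r1, -2.90 to 0.0328 for Il1r2, -0.16 to 0.21 for Il1rap, -0.28 to 0.15 for Il1rl1 and -0.34 to 0.36 for Il33.

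The standard errors of the members' genotype comparisons and of the difference were 0.13 to 1.16 on the log2 scale, with 3 mice a group. Where a fit left a group with 2 libraries, the spread came from all groups.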

Other observations

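The receptor genes on chromosome 1 lie in a row on the plus strand, in the order Il1r2, Il1r1, Il1rl2, Il1rl1, Il18r1 and Il18rap, between 40074079 and 40551705 (mm10). In that order, the log2 LPS fold changes in WT mice were 4.99, 0.90, 0.33, 0.63, 0.08 and 2.71, and in Adm+/- mice 6.88, 2.19, 0.79, 0.75, 0.19 and 2.94. The genes at both ends of the row, the IL-1 decoy Il1r2 and the IL-18 accessory chain Il18rap, had the largest values, and Il18r1, the direct neighbour of Il18rap, was not called in either genotype.

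Gm16894, an antisense transcript within Il1r2 chosen here after its values were seen, was at 0.155, 0.679 and 0.185 CPM in WT PBS, 3.94, 2.58 and 1.83 CPM in WT LPS, 0.0526, 0.101 and 0.199 CPM in Adm+/- PBS and 2.02, 2.43 and 2.81 CPM in Adm+/- LPS. It shares no exon with Il1r2 in the annotation, and the LPS libraries were above the PBS libraries in both genotypes, as for Il1r2 itself. Since the strand option of the counting is not given, reads from introns of Il1r2 may have been counted for Gm16894, which was not tested.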
